A study of Mus musculus with 24 samples.

Results

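The comparison described here is co-exposure to potassium bromate (KBrO3) and bisphenol A (BPA) against untreated cells at 4 hr. It rests on 6 of the 24 arrays of the series, the 3 whose titles give KBrO3 + BPA at 4 hr and the 3 titled as 4 hr controls of the same array set, and all are from Ku70-/- cells. Ku70, encoded by Xrcc6, is the DNA-binding partner of Ku80 in nonhomologous end joining. The cells were mouse embryonic fibroblasts of 1 line that lacks Ku70, so every group, controls included, carries the same deficiency. Co-exposed cells had BPA at 150 μM throughout, over 1 hr beforehand, over the 1 hr in which 20 mM KBrO3 was added, and over 3 hr more once the KBrO3 had been washed away. Cells given 20 mM KBrO3 alone for 1 hr, washed and left for 3 hr (3 arrays of the same set) are set beside them only to show where co-exposure differed. The control cells received neither agent. Each array was hybridized with Cy3-labeled RNA from 1 of 3 biological replicates. The comparison asks which transcripts differ 4 hr after the start of KBrO3 exposure when BPA is present before, during and after it.

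KBrO3 is an oxidizing agent best known for converting guanine in DNA to 8-oxoguanine, a lesion removed by base excision repair. BPA is a plasticizer monomer with weak estrogenic activity. Cells answer oxidants and electrophiles through NRF2, a transcription factor released from KEAP1 that drives glutathione and thioredoxin genes. They answer shortage of amino acids and misfolded protein through ATF4, which drives amino acid synthesis and transport. Both arms meet at cystine uptake, because cystine feeds glutathione synthesis.

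Levels are given on the log2 scale relative to the 75th percentile of each array, so that 0 is the level of a fairly bright spot and a difference of 1 is 2-fold. Of the spots other than controls, 62.9% to 65.1% were well above background in control arrays and 64.5% to 67.2% in co-exposed arrays. Array values correlated at r = 0.9919 to 0.9937 among controls and at 0.9962 to 0.9965 among co-exposed arrays, against 0.9199 to 0.9255 between the groups. Fibroblast markers bore out the label, since 12 of 12 were well above background on every array of both groups. Their summed level lay between 10.94 and 11.02 in controls and between 10.51 and 10.54 in co-exposed cells, where Pdgfrb, Pdgfra (at 1 of 2 probes) and Lum were altered and lower. Immune and endothelial markers were dim in both groups, and the summed level of the immune markers tested went from between -1.98 and -1.60 to between -0.65 and -0.62, with Cd68 altered and higher. That of the endothelial markers went from between -2.55 and -2.19 to between -1.97 and -1.70, with Kdr altered and higher, which was dim (above background on 2 of 3 control arrays) and changed sign with normexp. Epithelial and muscle markers were also dim except for Krt19, near 0 in both groups, and of the adipocyte markers only Fabp4 was bright. Whether these markers had a part in any result was not tested, and in bulk RNA fewer cells of a kind and less RNA per cell cannot be told apart. Xrcc6 itself gave a signal of 0.02, 0.06 and 0.21 in control arrays and -0.60, -0.50 and -0.56 in co-exposed arrays. Since no arrays of Ku70-proficient cells were used here, the signal cannot be read as a test of the genotype.

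Co-exposure altered 5084 of 13968 protein-coding genes tested, or 36.4%, with 2292 (16.4%) higher and 2792 (20.0%) lower than in control cells. Counts of list members against control, given below, are to be read beside these shares. Altered means a Bonferroni p below 0.01 over all 26850 probes and a change beyond 1.5-fold, read at the brightest tested probe of a gene. Printed p-values for single genes are Benjamini-Hochberg adjusted values of the same limma fit, ± is its standard error, and n is 3 arrays in each group. The median difference over all genes was 0.00. The 3 co-exposed arrays lay wholly outside the 3 control arrays for 86.1% of genes, above them for 42.8% and below them for 43.3%, so groups that do not overlap are the ordinary case here. Of the genes tested, 12575 were well above background on all 6 arrays. A further 481 failed the background limit on all 3 control arrays, of which 67 were altered, and 162 were not on any co-exposed array, of which 57 were altered. Any of these that are named below are given as lower bounds, or as array values where part of the control arrays measured them. Control and co-exposed arrays lay on different slides, so the effects of slide and of treatment cannot be told apart. With the slide as a random block, 3522 genes were altered, and the correlation of residuals within a slide was 0.642. With only the 6 arrays compared in the fit the count was 1908, and with normexp background correction it was 1766, of which 920 were higher and 846 lower.

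**Figure D1:**
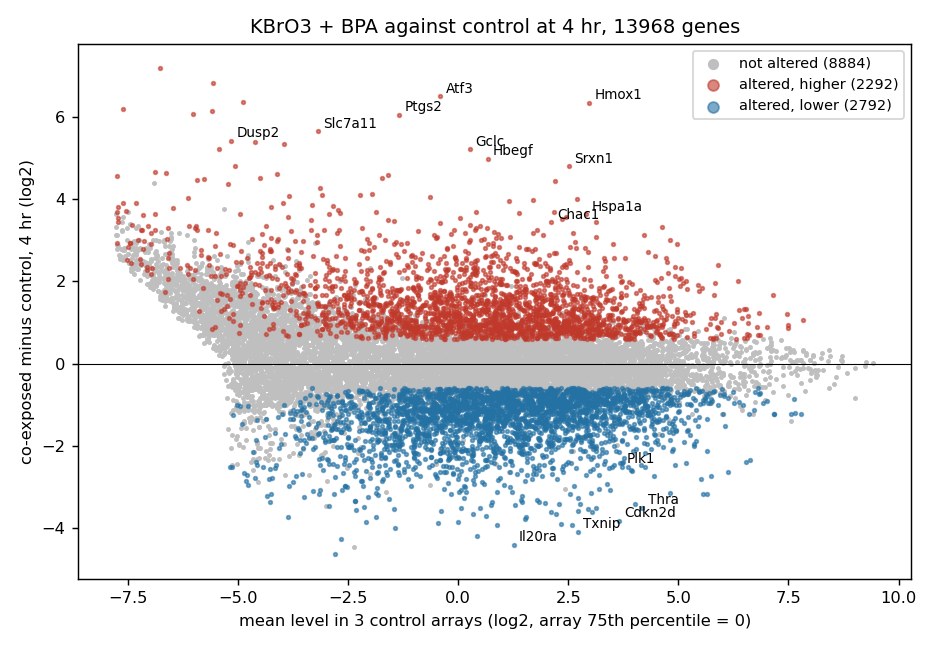
Difference between co-exposed and control cells at 4 hr (log2) for each of 13968 genes against its mean level in the 3 control arrays (log2, array 75th percentile at 0), with altered genes in red (2292 higher) and blue (2792 lower). The largest rises reach beyond 6 and the largest falls beyond -4, and the slanted lower left edge is where genes entered only because co-exposed arrays were above background.

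The largest rises among genes measured on all 6 arrays were those of Atf3, Hmox1, Ptgs2 and Slc7a11. Atf3, a stress-induced transcription factor of the ATF family, was at -0.45, -0.44 and -0.34 in the control arrays and at 6.10, 6.15 and 6.07 in the co-exposed arrays, a difference of 6.51 ± 0.053 (SE, adjusted p = 1.9e-15) or 91.4-fold. Hmox1, which breaks down heme, went from 2.94, 2.90 and 3.06 to 9.36, 9.40 and 9.18, a difference of 6.35 ± 0.063 (SE, adjusted p = 6.06e-15) that makes it 81.4-fold higher. Hmox1 was already above the 75th percentile in control arrays, whereas Atf3 was below it. Ptgs2, the inducible cyclooxygenase, rose from -1.33, -1.24 and -1.42 to 4.79, 4.59 and 4.80, a difference of 6.06 ± 0.063 (SE, adjusted p = 8.48e-15). Slc7a11, the cystine carrier that supplies glutathione synthesis, rose from -3.20, -3.06 and -3.30 to 2.42, 2.50 and 2.49, a difference of 5.66 ± 0.073 (SE, adjusted p = 2.34e-14). Control and co-exposed arrays did not overlap in any of these 4 genes, which holds for 86.1% of all genes. Others among the 12 largest rises were Dusp2, a MAP kinase phosphatase, at 5.43, Gclc, the catalytic subunit of the enzyme that limits glutathione synthesis, at 5.22, Hbegf, an EGF-family ligand, at 4.98 and Ccl4, a chemokine, at 4.62.

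A few genes rose from near or below background. Il18r1, a subunit of the interleukin-18 receptor, reached the background limit on none of the 3 control arrays, and was at 0.36, 0.46 and 0.42 in the co-exposed arrays, at least 60.8-fold higher. Kcne2, a potassium channel subunit, was at least 16.8-fold higher by the same reckoning, and Havcr2, the immune receptor TIM-3, at least 11.6-fold. Gsta1, a glutathione S-transferase, was above background on 1 of 3 control arrays at -5.42, -5.61 and -5.70 and was at 1.27, 1.23 and 1.28 after co-exposure. Areg, an EGF-family ligand above background on 2 of 3 control arrays, was at -4.82, -4.63 and -5.22 in controls and 1.51, 1.42 and 1.49 after co-exposure. Egr4, an early growth response factor above background on 1 of 3, was at -5.98, -5.05 and -5.70 and 0.55, 0.61 and 0.59. These 3 passed the filter through their co-exposed arrays, so no difference is given for them.

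The falls reached less far than the rises, to -4.41 in Il20ra among genes measured on all 6 arrays. Txnip, which binds and inhibits thioredoxin, was at 2.80, 2.64 and 2.73 in control arrays and at -1.33, -1.41 and -1.38 in co-exposed arrays, a difference of -4.10 ± 0.072 (SE, adjusted p = 2.3e-13) or 17.1-fold. Il20ra, a subunit of receptors for interleukin-20 family cytokines, fell from 1.31, 1.27 and 1.19 to -3.17, -3.16 and -3.13, a difference of -4.41 ± 0.046 (SE, adjusted p = 8.48e-15). Cdkn2d, the CDK4 and CDK6 inhibitor p19, fell from 3.75, 3.64 and 3.58 to -0.18, -0.12 and -0.21, a difference of -3.83 ± 0.11 (SE, adjusted p = 8.69e-12). In each of these 3 genes every co-exposed array lay below every control array by more than 3. Bmf, a proapoptotic BH3-only protein, differed by -3.86 at its brightest probe and by 0.43 (not altered) at another. Cbx7, a Polycomb chromodomain protein, differed by -3.94, Hoxa7, a homeobox factor, by -3.91 and Inhbb, an activin subunit, by -3.74, while another Inhbb probe was not altered and was on no co-exposed array well above background. Edn1, the vasoconstrictor endothelin-1, was at -1.82, -1.77 and -1.99 in controls and on no co-exposed array well above background, at least 11.9-fold lower. Hpgd, which inactivates prostaglandins, was at least 10.3-fold lower, while Ptgs2, which makes their precursor, was among the largest rises.

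**Figure D2:**
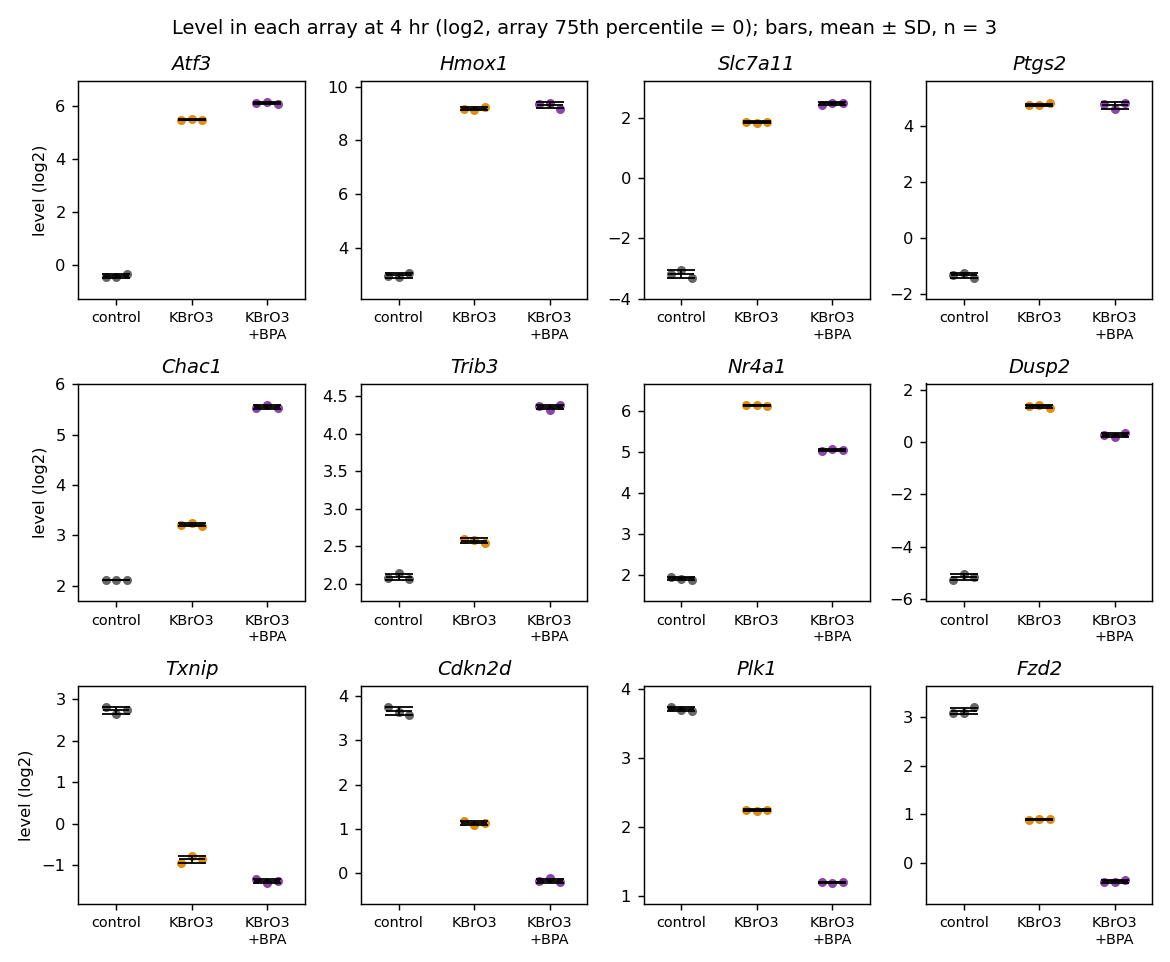
Level in each of 9 arrays at 4 hr (log2, array 75th percentile at 0) for 12 genes in control cells, cells given KBrO3 alone and co-exposed cells, as points with mean and SD of 3 arrays. Replicates of a group sit close together in every panel, Chac1 and Trib3 stand higher after co-exposure than after KBrO3 alone, and Plk1, Cdkn2d and Fzd2 stand lower.

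NRF2 target genes had more rises than falls. Of 38 tested, 21 were altered and higher and 3 were lower, with a median difference of 0.98 against 0.00 over all genes. Of these, 35 were well above background on all 6 arrays, with 19 higher, 3 lower and a median of 0.94. Beside Slc7a11, Hmox1 and Gclc, the rises were 4.80 for Srxn1 (sulfiredoxin), 3.33 for Txnrd1 (thioredoxin reductase) and 2.95 for Gclm, the modifier subunit that partners Gclc. Sqstm1, the autophagy receptor p62, rose by 2.39. Cbr1 (-1.16), Mgst1 (-0.81) and Gstm3 (-0.60), which reduce carbonyls or conjugate glutathione, were the 3 that fell. Other antioxidant genes, among them superoxide dismutases, peroxidases, glutaredoxins and methionine sulfoxide reductases, showed no such shift. Of 27 tested, 4 were higher and 5 lower, beside 16.4% and 20.0% of all genes, with a median of -0.28. Catalase (Cat) stood at 0.06, not altered. Txnrd1 and Gclm are shown here because letters of the antioxidant response element, TGACNNNGC on either strand, lie before their starts. Such a match was in the promoter windows of 11 of 31 NRF2 targets (35.5%) and of 16.5% of all 11184 tested genes with a window, which runs from 250 bases before to 50 after a start. The stretches printed in this and later paragraphs are the 250 bases before the start, from RefSeq on GRCm38.p6, 5′ to 3′ on the gene's strand, with the match in capitals. A match describes letters only and does not show a bound site.
Txnrd1 (chr10:82858956-82859205, + strand): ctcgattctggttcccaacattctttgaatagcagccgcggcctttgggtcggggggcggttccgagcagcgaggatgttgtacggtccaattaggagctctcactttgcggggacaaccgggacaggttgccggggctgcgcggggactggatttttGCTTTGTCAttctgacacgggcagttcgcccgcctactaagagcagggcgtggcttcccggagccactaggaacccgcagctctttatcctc
Gclm (chr3:122245307-122245556, + strand): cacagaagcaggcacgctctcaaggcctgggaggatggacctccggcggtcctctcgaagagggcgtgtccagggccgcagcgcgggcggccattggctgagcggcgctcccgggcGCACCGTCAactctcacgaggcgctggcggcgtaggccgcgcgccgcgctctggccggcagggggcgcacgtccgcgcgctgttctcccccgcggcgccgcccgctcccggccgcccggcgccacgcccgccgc

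Many ATF4 target genes stood higher after co-exposure than after KBrO3 alone. Against control, 27 of 35 were altered and higher and 0 were lower, with a median of 1.74. Both treatments share the 3 control arrays, and the same list had a median of 0.72 after KBrO3 alone. Compared directly, 19 of 35 were higher after co-exposure than after KBrO3 alone and 0 lower, where 6.09% of all genes were altered and 2.84% were higher, with a median of 0.70 against -0.02 over all genes. Chac1, which degrades glutathione, was at 2.11, 2.11 and 2.12 in controls, 3.21, 3.24 and 3.19 after KBrO3 alone and 5.53, 5.60 and 5.54 after co-exposure. It differed from control by 3.44 ± 0.048 (SE, adjusted p = 3.96e-14) and from KBrO3 alone by 2.34 ± 0.048 (SE, adjusted p = 1.47e-10), the largest rise over KBrO3 alone among altered genes measured on all arrays of both treatments. Trib3, a pseudokinase that restrains ATF4 and AKT, was at 2.07, 2.14 and 2.06, 2.60, 2.58 and 2.54 and 4.37, 4.32 and 4.38 in the same order, a difference from KBrO3 alone of 1.78 ± 0.05 (SE, adjusted p = 6.77e-10). Thus the Trib3 level after KBrO3 alone lay nearer to control than to co-exposure.

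Other members with the same order were Ddit4, an inhibitor of mTORC1 (1.80 against KBrO3 alone), Cth, which makes cysteine (1.62), Ddit3, the factor CHOP (1.25), Slc7a5, a carrier of large neutral amino acids (1.26), and Psph, of serine synthesis (1.18). Asns, asparagine synthetase, was at 4.79, 4.80 and 4.75 in controls, 5.82, 5.81 and 5.82 after KBrO3 alone and 6.63, 6.62 and 6.61 after co-exposure. Atf4 itself rose by 2.02 against control and stood 0.66 above KBrO3 alone. Nupr1, a small stress protein, was at 3.29, 3.28 and 3.27 in controls, 3.00, 3.00 and 2.99 after KBrO3 alone and 3.95, 4.06 and 4.03 after co-exposure, so that only co-exposed arrays lay above control. Gdf15, a secreted stress cytokine on the same list, rose by 3.26 against control and was not altered against KBrO3 alone (-0.17). Gadd45a, a growth arrest gene outside the list, also stood 1.56 ± 0.076 (SE, adjusted p = 3.33e-08) above KBrO3 alone. Co-exposed and KBrO3-only arrays were on different slides, so slide and treatment cannot be told apart here either. When the slide was a random block, 14 of the 35 were altered and higher, and the count was 10 with arrays scaled to their medians, 9 with only the 6 arrays compared and 6 with normexp, against 0 lower in each. Slc7a5 and Atf4 were not altered under the slide block.

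In all, 8 pairs of a list and a letter pattern were searched. The composite C/EBP-ATF letters TGATGNAA, on either strand, were in the windows of 9 of 29 ATF4 targets (31%) and of 2.94% of all tested genes with a window. The 3 members shown are those with the largest difference from KBrO3 alone among the altered ones with a match before the start. All 3 read the same 8 letters on the gene's strand, starting 193, 200 and 110 bases before the start, and none overlapped a match to another motif searched here.
Chac1 (chr2:119350992-119351241, + strand): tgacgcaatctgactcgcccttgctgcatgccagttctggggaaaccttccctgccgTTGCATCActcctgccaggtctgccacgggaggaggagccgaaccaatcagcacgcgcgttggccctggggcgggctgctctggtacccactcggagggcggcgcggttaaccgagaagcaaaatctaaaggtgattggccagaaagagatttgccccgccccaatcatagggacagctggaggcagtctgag
Vldlr (chr19:27216770-27217019, + strand): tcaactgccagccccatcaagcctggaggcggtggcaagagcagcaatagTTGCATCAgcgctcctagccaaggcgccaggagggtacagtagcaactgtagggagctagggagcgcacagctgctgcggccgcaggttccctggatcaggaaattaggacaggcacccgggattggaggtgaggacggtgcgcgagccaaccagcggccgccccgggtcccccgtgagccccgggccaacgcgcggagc
Nupr1 (chr7:126625471-126625720, - strand): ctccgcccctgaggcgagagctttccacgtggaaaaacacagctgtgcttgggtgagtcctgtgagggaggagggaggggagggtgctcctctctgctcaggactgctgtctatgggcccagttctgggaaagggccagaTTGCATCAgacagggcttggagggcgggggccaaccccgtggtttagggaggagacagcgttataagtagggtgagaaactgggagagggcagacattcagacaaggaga

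**Figure D3:**
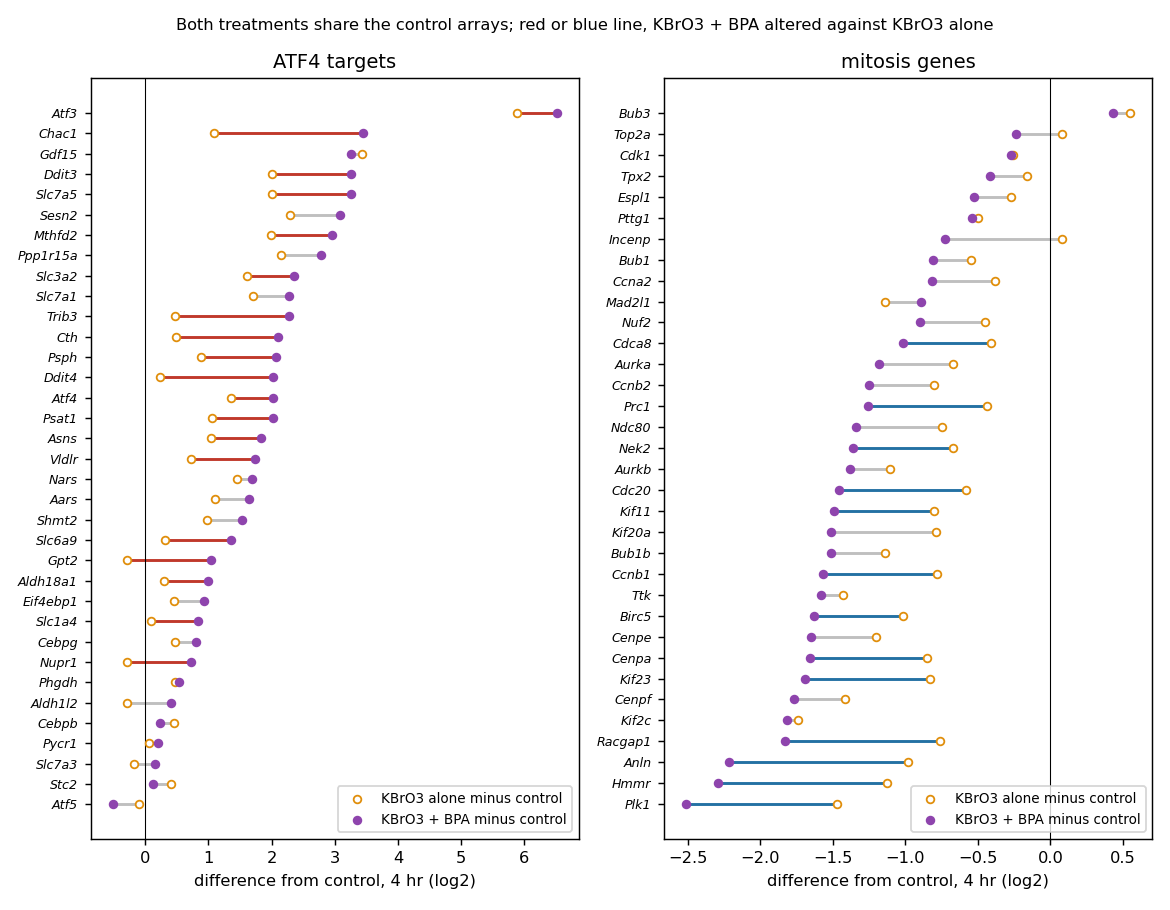
Difference from control at 4 hr (log2) for 35 ATF4 targets and 34 mitosis genes after KBrO3 alone (open) and after co-exposure (filled), with a colored line where the 2 treatments differed by the altered rule. Of the ATF4 targets, 19 lines are red, and of the mitosis genes 13 are blue; both treatments are set against the same 3 control arrays.

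Cholesterol and tRNA charging genes rose as groups. Cholesterol synthesis genes, driven by SREBP factors when sterol is short, were higher in 17 of 25 and lower in 3, with a median of 1.36. Cyp51, which demethylates lanosterol, went from 0.29, 0.31 and 0.17 to 3.65, 3.56 and 3.66, a difference of 3.37 ± 0.085 (SE, adjusted p = 3.97e-12). Insig1, which holds SREBP in the endoplasmic reticulum, rose by 2.90, while Srebf1 fell by 1.18. Of the 25, 4 stood above KBrO3 alone, where 2.84% of all genes did, among them Lss, lanosterol synthase. At its brightest probe Lss was at 0.81, 0.89 and 0.81 in controls, 0.79, 0.79 and 0.83 after KBrO3 alone and 2.04, 1.87 and 2.07 after co-exposure. Other tested Lss probes were at 1.86 and 1.62 against control and at 0.80 and 0.48 (the last not altered) against KBrO3 alone. Under the slide block 0 of the 25 passed against KBrO3 alone, and without any one co-exposed or KBrO3 replicate 1 to 2 did. Their median under the slide block was 0.34, and Lss was then not altered against control either. Cytosolic aminoacyl-tRNA synthetases, several of which are themselves ATF4 targets, were higher in 15 of 20 and lower in 1, with a median of 1.10 and the largest rise in Gars (2.10).

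Genes for building ribosomes rose together. Of 36 ribosome biogenesis and RNA polymerase I genes, 31 were higher and 0 lower, with a median of 1.87. Ncl, nucleolin, went from 5.06, 5.03 and 5.13 to 7.39, 7.47 and 7.33, a difference of 2.33 ± 0.048 (SE, adjusted p = 8.28e-13). Rrp12 and Nop14, which act in small subunit assembly, rose by 3.30 and 3.04, and Polr1b, an RNA polymerase I subunit, by 2.56. Ribosomal proteins themselves had 11 of 91 higher and 1 lower, beside 16.4% and 20.0% of all genes, and a median of 0.20. The rise was like that after KBrO3 alone, where the median of the 36 was 1.83, and 2 of 36 stood above it. Of 8 subunits of the CCT chaperonin, which folds actin and tubulin, 7 were higher and 0 lower, with a median of 1.21.

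Heat shock proteins, chaperones that refold or hold damaged protein, were higher in 18 of 25 and lower in 1, with a median of 1.23. Hspa1a, an inducible HSP70, went from 2.90, 2.91 and 2.94 to 6.46, 6.59 and 6.58, a difference of 3.63 ± 0.042 (SE, adjusted p = 1.39e-14). Hsph1, its nucleotide exchange factor, rose by 2.71, and Hspd1 and Hspe1, the mitochondrial chaperonin and its cofactor, by 2.09 and 1.33. Of 34 proteasome subunits 13 were higher, beside 16.4% of all genes, and 1 lower, with a median of 0.53. That count of rises was 8 with quantile normalization, 7 with median scaling and 1 with normexp. Chaperones of the endoplasmic reticulum were mixed, with 10 of 28 higher and 5 lower. Dnajb9 rose by 1.70 and Pdia4 fell by 0.88, and the list median of 0.09 turned to -0.07 with quantile normalization. The heat shock element (GAA, any 2 bases, TTC, any 2 bases, GAA, on either strand) was in 4 of 19 heat shock gene windows (21.1%) and in 0.528% of all. Hspd1 and Hspe1 are divergent neighbors whose windows overlap. The stretch before Hspd1 holds 2 overlapping matches, starting 144 and 139 bases before its start, and the same bases are counted for both genes among the 4.
Hspd1 (chr1:55087933-55088182, - strand): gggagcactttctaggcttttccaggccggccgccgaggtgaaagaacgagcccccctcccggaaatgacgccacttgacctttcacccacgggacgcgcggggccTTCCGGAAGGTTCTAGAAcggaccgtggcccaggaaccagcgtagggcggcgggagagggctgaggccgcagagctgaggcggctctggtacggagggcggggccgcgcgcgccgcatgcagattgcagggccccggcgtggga

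The list of immediate early factors holds genes that growth signals and stress switch on without new protein, many of them for transcription factors. Of 28, 24 were higher and 0 lower, with a median of 1.67 (23 of the 27 well above background on all 6 arrays). Myc rose from 1.78, 1.66 and 1.69 to 4.98, 4.79 and 4.92, a difference of 3.19 ± 0.06 (SE, adjusted p = 3.9e-13). Fosl1, an AP-1 subunit, rose by 4.05, Jun by 2.43 and Ier3 by 3.56. In contrast to the ATF4 targets, 5 of 28 stood below KBrO3 alone and 0 above, where 3.26% of all genes stood below. Nr4a1, an orphan nuclear receptor, was at 1.97, 1.91 and 1.89 in controls, 6.15, 6.13 and 6.11 after KBrO3 alone and 5.02, 5.07 and 5.05 after co-exposure, a difference from KBrO3 alone of -1.09 ± 0.035 (SE, adjusted p = 1.96e-09). Arc had the same order, 3.30 above control and 1.30 below KBrO3 alone. Of the MAP kinase phosphatases, which end the signal, Dusp2 and Dusp1 stood 1.11 and 0.80 below KBrO3 alone while remaining above control. Of the 28 immediate early genes and 11 phosphatases tested, 4 and 1 were lower than KBrO3 alone with a random slide block. These counts were 3 and 0 with only the 6 arrays compared, and 1 and 0 with normexp.

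Secreted signals rose in part. Of 36 cytokines and chemokines 18 were higher and 5 lower, beside 16.4% and 20.0% of all genes, with a median of 0.98. Il11 rose from -2.75, -2.87 and -2.54 to 1.00, 0.98 and 1.09, a difference of 3.74 ± 0.12 (SE, adjusted p = 3.1e-11), and Il6, Cxcl2 and Csf2 rose by 1.86, 2.48 and 2.80. Ccl20, a chemokine for CCR6-bearing cells, was at 1.81, 1.93 and 1.76 in controls, 2.82, 2.83 and 2.78 after KBrO3 alone and 4.42, 4.29 and 4.45 after co-exposure. Under the slide block Ccl20 was not altered against KBrO3 alone, and Cxcl2 was not altered against control. Cxcl12, a stromal chemokine, fell by 1.51 and Tnfsf10, the death ligand TRAIL, by 2.28. Subunits and inhibitors of NF-kB did not move as a group, with 3 of 22 higher and 6 lower, beside 16.4% and 20.0% of all genes. Inhba, an activin subunit, rose by 3.99, and Vegfa, the endothelial growth factor, by 3.70. Collagens and matrix genes stayed close to control, with 1 of 35 higher and 1 lower.

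The p53 targets split. Of 32, 11 were higher and 8 lower, beside 16.4% and 20.0% of all genes, and the median was -0.11. Cdkn1a, the CDK inhibitor p21, went from 0.70, 0.61 and 0.72 to 3.55, 3.61 and 3.62, a difference of 2.92 ± 0.073 (SE, adjusted p = 3.84e-12), and Plk2, Pmaip1 (NOXA) and Mdm2 rose by 3.30, 2.31 and 1.71. Fas, the death receptor, fell at its brightest probe from 2.52, 2.60 and 2.54 to 0.74, 0.66 and 0.80, a difference of -1.82 ± 0.062 (SE, adjusted p = 5.01e-11). Another Fas probe was at 0.47, not altered. Bbc3 (PUMA) fell by 1.26, and Apaf1, the apoptosome scaffold, by 2.05 at its brightest probe, with 2 other probes at -0.60 and -0.86, neither altered. Caspases and death receptors had 11 of 24 lower and 3 higher (median -0.67) and the BCL2 family 7 of 17 lower and 2 higher (median -0.76), where 20.0% of all genes were lower. With normexp 3 of each list were lower. Casp9 fell by 1.77 and Casp6 by 1.52, whereas Ripk1, a kinase of necroptosis and NF-kB signaling, rose by 2.68.

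Mitosis genes fell as a group. Of 34, 25 were lower and 0 higher, beside 20.0% and 16.4% of all genes, with a median of -1.37. Of the same 34, 13 were also lower than after KBrO3 alone, where 3.26% of all genes were. Without any one co-exposed or KBrO3 replicate that count was 8 to 10. After KBrO3 alone the median against control was -0.77. Plk1, a kinase of mitotic entry and exit, was at 3.74, 3.70 and 3.68 in controls, 2.25, 2.23 and 2.25 after KBrO3 alone and 1.20, 1.19 and 1.20 after co-exposure. It differed from control by -2.51 ± 0.055 (SE, adjusted p = 1.23e-12) and from KBrO3 alone by -1.04 ± 0.055 (SE, adjusted p = 5.57e-08). Ccnb1, cyclin B1, was at 1.36, 1.32 and 1.39, 0.55, 0.61 and 0.56 and -0.23, -0.22 and -0.21 in the same order, and no array of 1 group overlapped another. Its other probes, at -0.87 and -1.30 against control, were not altered against KBrO3 alone (-0.02 and -0.42). Hmmr, Anln and Racgap1, of spindle and cytokinesis, fell by 2.29, 2.22 and 1.83 against control, Racgap1 at 1 of its 2 tested probes (-0.78 and not altered at the other). Cdk1 was not altered (-0.27). When the slide was blocked 5 of the 34 stood below KBrO3 alone, with only the 6 arrays compared 4 did, and with normexp 0 did at a median of -0.47. Replication genes went the other way in part, with 14 of 39 higher and 5 lower, beside 16.4% and 20.0% of all genes. Orc1, of the origin recognition complex, rose by 2.76, Cdc6, which loads the replicative helicase, by 1.68 and Ccne1, cyclin E1, by 1.74, while Tk1, thymidine kinase, fell by 2.29. The replication median of 0.22 turned to -0.01 with quantile normalization.

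Promoters of mitosis genes often hold the letters of the cell cycle genes homology region, TTTGAA, close to the start. These letters, on either strand, were in the windows of 21 of 29 mitosis genes (72.4%) and of 14.9% of all tested genes with a window. The 3 members shown are those with the largest difference from KBrO3 alone among the altered ones with a match before the start, and their matches start 18, 30 and 19 bases before it. Of the other patterns searched, the E-box CACGTG was in 13.3% of ribosome biogenesis windows against 11.1% of all, and in immediate early windows the cAMP response element was in 5% against 3.31% and the AP-1 letters TGANTCA in 5% against 6.81%. The sterol regulatory letters TCACNCCAC were in 1 of 17 cholesterol gene windows, against 1.41% of all.
Cdc20 (chr4:118437344-118437593, - strand): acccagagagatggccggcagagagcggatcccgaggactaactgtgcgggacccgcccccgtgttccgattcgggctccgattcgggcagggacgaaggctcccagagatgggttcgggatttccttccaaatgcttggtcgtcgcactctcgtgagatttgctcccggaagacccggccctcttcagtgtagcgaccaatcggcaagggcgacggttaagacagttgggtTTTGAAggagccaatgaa
Prc1 (chr7:80294226-80294475, + strand): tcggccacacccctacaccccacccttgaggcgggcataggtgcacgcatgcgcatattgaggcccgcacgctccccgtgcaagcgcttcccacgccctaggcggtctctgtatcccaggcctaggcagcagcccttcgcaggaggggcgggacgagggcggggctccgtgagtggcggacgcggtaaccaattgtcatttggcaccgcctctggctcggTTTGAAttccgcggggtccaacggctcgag
Kif11 (chr19:37376132-37376381, + strand): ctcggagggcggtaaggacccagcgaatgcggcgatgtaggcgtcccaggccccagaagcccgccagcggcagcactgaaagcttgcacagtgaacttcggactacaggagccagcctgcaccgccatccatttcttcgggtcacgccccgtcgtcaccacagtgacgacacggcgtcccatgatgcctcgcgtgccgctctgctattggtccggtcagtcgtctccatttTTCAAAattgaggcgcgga

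**Figure D4:**
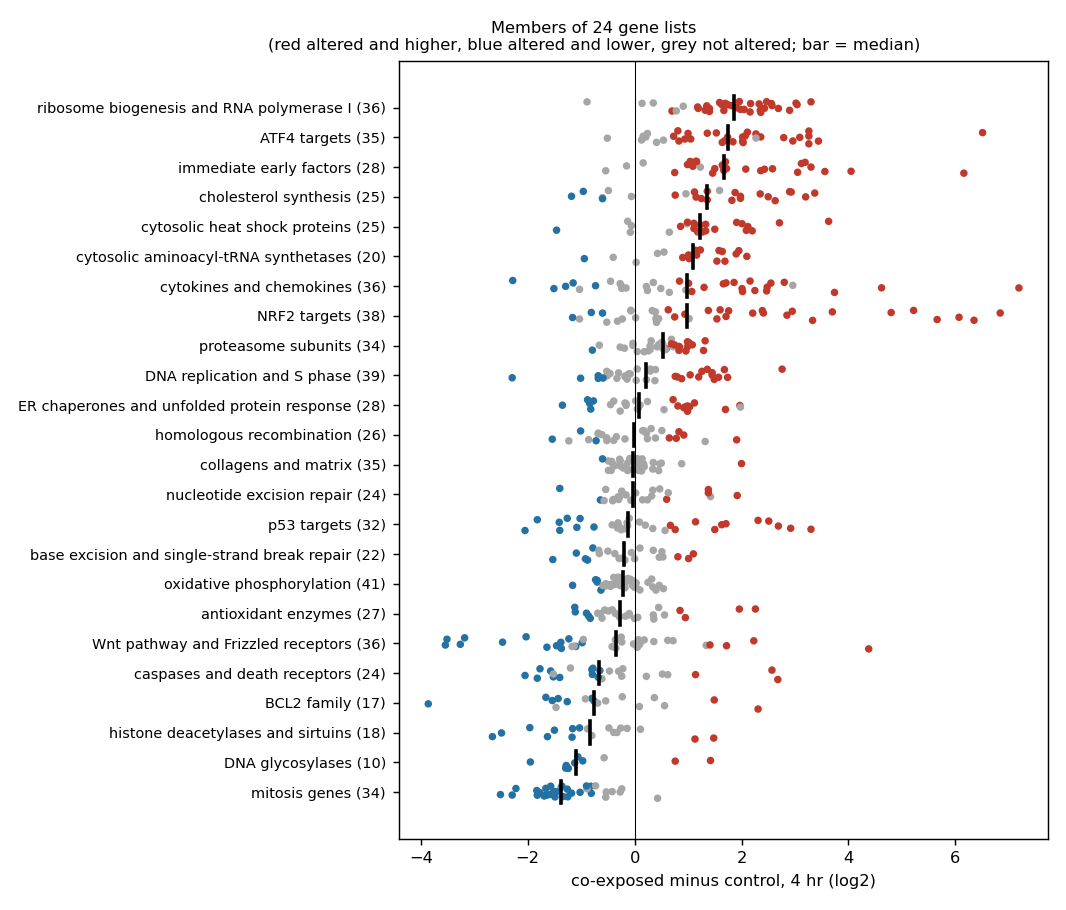
Difference between co-exposed and control cells at 4 hr (log2) for each tested member of 24 gene lists, with the number tested in parentheses and the list median as a black bar. Ribosome biogenesis (median 1.87), ATF4 targets (1.74) and immediate early factors (1.67) lie at the top, and DNA glycosylases (-1.09) and mitosis genes (-1.37) at the bottom.

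DNA glycosylases, which open base excision repair by cutting out a damaged base, were mostly lower. Of 10 tested, 7 were lower and 2 higher, beside 20.0% and 16.4% of all genes. Their median was -1.09 against -0.94 after KBrO3 alone. Ogg1, which removes 8-oxoguanine, went from 1.22, 1.17 and 1.02 to 0.20, 0.13 and 0.17, a difference of -0.97 ± 0.072 (SE, adjusted p = 7.26e-08). Mutyh, which removes adenine placed opposite 8-oxoguanine, was at -1.31, -1.26 and -1.12 in controls, -2.92, -2.90 and -3.03 after KBrO3 alone and -2.25, -2.27 and -2.36 after co-exposure. It was therefore lower than control by 1.06 and higher than after KBrO3 alone by 0.65 ± 0.059 (SE, adjusted p = 3.31e-06), as was Mbd4, which removes thymine and uracil opposite guanine (-1.28 against control and 0.86 against KBrO3 alone). In the fit with the slide block neither Ogg1 against control nor Mutyh and Mbd4 against KBrO3 alone were altered. Neil3 fell by 1.95, Mpg by 1.29, Neil1 by 1.24 and Nthl1 by 1.12. The 2 that rose act on uracil and thymine mispairs, Ung by 1.42 and Tdg by 0.76. Smug1 was not altered at -0.57, just under the 1.5-fold limit. Mutyh and Neil1 each had a further probe that was not altered against control (-0.05 and -0.75), as did Neil3 (-1.92, with 2 of 3 co-exposed arrays above background). Another Smug1 probe was at 0.17, not altered.

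Later steps of base excision and single-strand break repair had 3 of 22 higher and 5 lower, shares near the 16.4% and 20.0% of all genes. Apex1, the endonuclease that cuts the abasic site, went from 2.70, 2.71 and 2.77 to 3.54, 3.59 and 3.48, a difference of 0.81 ± 0.037 (SE, adjusted p = 7.13e-10). Fen1, the flap endonuclease, rose by 1.01 and Pcna, the sliding clamp, by 1.10, and Poll, DNA polymerase lambda, fell by 1.53. Polb, DNA polymerase beta, whose probes disagreed, went from 0.07, 0.16 and 0.19 to 0.66, 0.51 and 0.62 and was not altered (0.46 ± 0.091 (SE, adjusted p = 0.000549)). Of its other probes, 1 was altered and lower (-1.38), and the other was at -0.77, not altered. Parp1 (-0.37), Xrcc1 (-0.67), Lig3 (-0.66, and 0.17 at another probe) and Tdp1 (-0.29) were not altered either. The control and co-exposed arrays of each did not overlap, which holds for 86.1% of all genes. In nucleotide excision repair 4 of 24 were higher, much the same as the 16.4% of all genes, and 2 lower, with Ercc8 and Ercc6, which act where transcription stalls, higher by 1.92 and 1.38. Ercc3, a TFIIH helicase, rose by 0.60 and Ercc5 was not altered at -0.28.

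Homologous recombination had 5 of 26 higher, near the 16.4% of all genes, and 3 lower, a smaller share than 20.0%. With arrays scaled to their medians 1 of the 26 was higher. Among the rises, Exo1, a resection nuclease, was higher by 1.91 and Rpa1, of the single-strand binding complex, by 0.78. Mre11a, of the complex that senses broken ends, was not altered (0.39, and -0.18 and 0.55 at other probes). End joining had 2 of 11 higher and 3 lower in these cells without Ku70, which is also near the shares of all genes. Lig4, its ligase, was at -0.78, -0.76 and -0.68 in controls, -0.34, -0.31 and -0.34 after KBrO3 alone and 0.46, 0.44 and 0.65 after co-exposure, a difference from KBrO3 alone of 0.85 ± 0.081 (SE, adjusted p = 4.67e-06). Under the slide block Lig4 was not altered in either comparison. Xrcc5, which encodes Ku80, was not altered (0.15). Fanconi anemia genes had 4 of 15 lower, beside 20.0% of all genes, and 0 higher. Fancg stood at -2.43 at its brightest probe, and at -1.30 (altered) and 1.01 (not altered) at others.

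**Figure D5:**
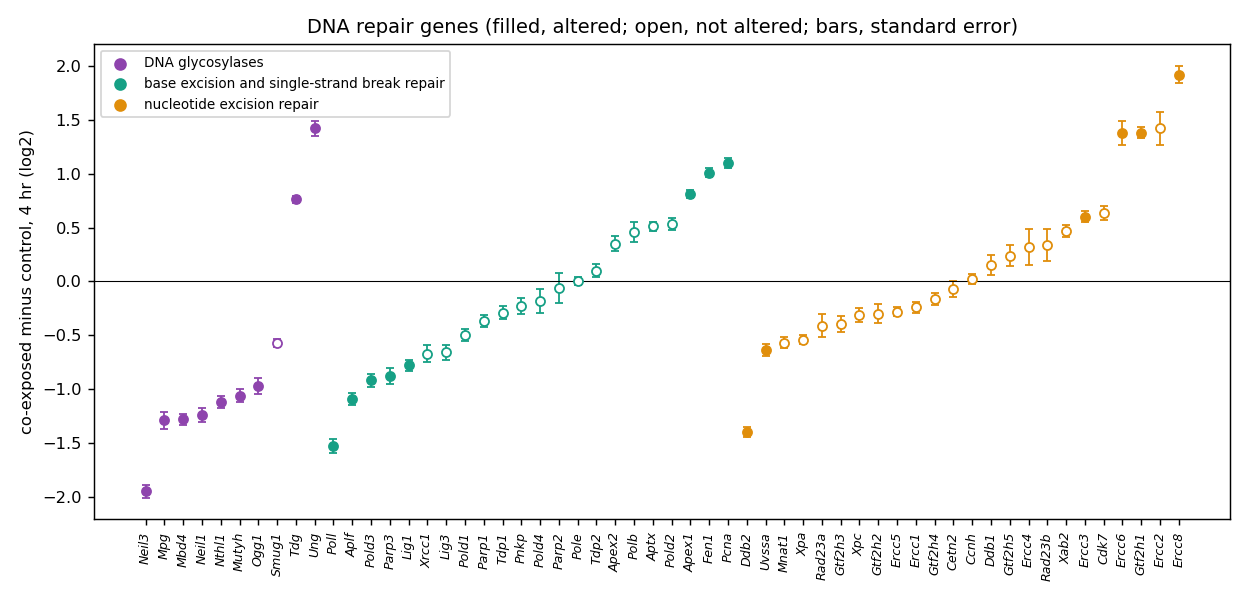
Difference between co-exposed and control cells at 4 hr (log2, with standard error) for DNA glycosylases, other base excision and single-strand break repair genes, and nucleotide excision repair genes, each group ordered by value. Of 10 glycosylases 7 lie below 0 as filled (altered) points, from Neil3 at -1.95 to Ogg1 at -0.97, while most later genes are open.

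Hox genes and Wnt pathway genes had more falls than rises, where 20.0% of all genes were lower and 16.4% higher. Of 22 Hox genes tested, 13 were lower and 0 higher, with a median of -1.58. Frizzled, Wnt and related genes had 13 of 36 lower and 4 higher (12 and 3 of the 30 well above background on all 6 arrays). Of the 36, 7 were lower than after KBrO3 alone and 0 higher, where 3.26% of all genes were lower, and without any one co-exposed or KBrO3 replicate 2 were. Fzd2, a Wnt receptor, was at 3.09, 3.09 and 3.21 in controls, 0.88, 0.91 and 0.91 after KBrO3 alone and -0.39, -0.39 and -0.34 after co-exposure, a difference from control of -3.51 ± 0.047 (SE, adjusted p = 3.3e-14). Dkk2, a secreted Wnt modulator, and Tcf7l1, a TCF factor, fell by 3.54 and 2.47. Axin2, a feedback target of the pathway, was on no co-exposed array well above background and was at least 3.85-fold lower. When the slide was blocked 2 of the 36 stood below KBrO3 alone, and with normexp 1 did. Dio3, which inactivates thyroid hormone, had the largest fall against KBrO3 alone among altered genes measured on all arrays of both treatments, at 3.09, 3.07 and 2.93 in controls, 1.65, 1.64 and 1.63 after KBrO3 alone and -0.59, -0.60 and -0.58 after co-exposure. Thra, a thyroid hormone receptor, fell by 3.52. Ccn1, a matrix protein and YAP target, was at 3.92, 3.85 and 3.89, 4.36, 4.37 and 4.39 and 2.69, 2.69 and 2.74 in the same order, so that it lay above control after KBrO3 alone and below it after co-exposure (-1.67 ± 0.045 (SE, adjusted p = 6.21e-10) between the treatments).

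Histone deacetylases and sirtuins had 8 of 18 lower and 2 higher, with a median of -0.84, where 20.0% of all genes were lower and 16.4% higher, and with normexp 2 of the 18 were lower. Acetyltransferases had 2 of 15 lower and 4 higher. Sirt1 went from 0.45, 0.45 and 0.59 to 1.98, 2.02 and 1.92, a difference of 1.48 ± 0.055 (SE, adjusted p = 1.19e-10), and Hdac5, a class IIa deacetylase, fell by 1.17. Kat2b, an acetyltransferase, fell by 1.48 at its brightest probe and by 4.64 at another. Among receptors reported to bind BPA, Esr1, the estrogen receptor alpha, fell by 0.78 from a mean of -2.74, and Pparg, a nuclear receptor of fat cell differentiation, rose by 0.93. Ahrr, which represses the aryl hydrocarbon receptor, fell by 3.39, while Tiparp, a target of that receptor, rose by 2.70. Cyp2d22, a cytochrome P450, was not altered at its brightest probe (-0.21) but another of its probes was altered and lower, with no co-exposed array well above background there. Such disagreement was uncommon in direction, since 20 of 5963 genes with several tested probes had probes altered both ways, but 2160 had probes that differed in call. Of the genes named here, 14 altered ones had another tested probe that was not altered and 0 had one altered the other way. Oxidative phosphorylation subunits had 5 of 41 lower, beside 20.0% of all genes, and 0 higher, and the count of lower ones depended on scaling, at 11 with quantile normalization, 1 with median scaling and 0 with normexp.

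Altered genes had spans close to those of the other genes. The median span in the annotation was 23.3 kb for genes that rose, 21.6 kb for genes that fell and 21 kb for the rest, and across genes the Spearman correlation of span with the difference was -0.039. It was -0.245 with the control level, a description over genes that share the same arrays and whose control level also enters the difference. Genes could also enter through their co-exposed arrays alone, and 481 failed the background limit on all control arrays. With genes ordered by control level and cut into near-equal groups, the median difference was 0.81 in the dimmest group. It was -0.07, -0.11, -0.16 and -0.15 in the brighter groups, in rising order of level. The part of the filter in this correlation was not tested.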

How the data were processed

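Total RNA of Ku70-/- mouse embryonic fibroblasts was measured on 1-color Agilent arrays. The authors deposited the scanner output of each array, whose intensity values (processed signal, background-subtracted by Agilent Feature Extraction 9.5.3.1 per the file headers) were used, and a series table that holds the same unnormalized intensity, exactly equal to the scanner value in 675270 of 675270 entries. From the intensity, log2 was taken and the 75th percentile over non-control spots of each array was subtracted. Probes well above background on all 3 arrays of either group entered (26850 probes). Probes were matched to the RefSeq table by accession (23075), symbol (6582) or synonym (3077), 32734 of 41174 in all, which gave 18442 protein-coding genes, 13968 of them tested, each read at its tested probe with the highest mean over the 6 arrays. limma 3.58.1 (R 4.3.3; lmFit and eBayes, two-sided) was fitted to 15 arrays of 1 array set, 5 groups of 3, which share 1 estimate of the spread. Altered means Bonferroni p below 0.01 and more than 1.5-fold, and printed p-values are Benjamini-Hochberg adjusted over all probes. The median residual SD was 0.105, and 3 arrays per group limit the precision.

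Where every array of a group missed the background limit, the fold is a lower bound, written "at least". It sets the bright group's mean against the dim group's, each dim array taken at its measured value or at the dimmest detected probe of that array, whichever was higher. Members and gene lists were chosen with earlier results of these data known. Named genes were a selection from the 12 largest altered rises and falls, the 8 largest bounds each way, up to 4 altered genes each way per list, genes the study text names, Xrcc6, and the 8 genes furthest each way from KBrO3 alone. Markers and members that were not altered were named to explain a count. The test was checked on simulated data. The study's methods give 3 biological replicates per group from 1 cell line. Normalization, background correction, the filter, the fit, replicate and slide blocks, and single replicates left out were varied. The arrays of BPA alone, in a second set, were not used here. A few genes are not reported here.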

Additional observations from a re-analysis of the deposited data

Results flagged for a closer look

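Co-exposed cells of 24 hr were tested against those of 4 hr (limma on the same 15 arrays). Those of 24 hr had the same 2 hr of treatment and then 23 hr more in 150 μM BPA without KBrO3. Controls of this set are labeled 4 hr only, so time since exposure and time in culture cannot be told apart. Co-exposed arrays of the 2 times lay on different slides from each other and from the controls, so slide and time cannot be told apart either. Between co-exposed cells of 24 hr and of 4 hr 4889 genes were altered, and 178 genes were altered against control in opposite directions at the 2 times, each against the same controls. Among genes named above, Cyp51 was 3.37 above control at 4 hr and 1.30 below it at 24 hr, a difference of -4.67 between the times. The other cholesterol genes named differed by -4.46 for Insig1 and -2.66 for Lss. Secreted and signaling genes differed by -5.85 for Csf2, -4.53 for Ccl20, -3.34 for Il6 and -2.19 for Dusp1. Ogg1 went from 0.97 below control at 4 hr to 0.87 above it at 24 hr, a difference of 1.84, and Mutyh and Bbc3 differed by 1.73 and 2.10.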

How the results depend on the processing

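Of 40 counts of altered genes recomputed over both comparisons, 25 stayed within 1.5 times the original. Against control, 5084 altered genes became 1766 with normexp background correction, 1908 with only the 6 arrays compared, and 7689 with a Benjamini-Hochberg threshold in place of Bonferroni; without any one replicate they numbered 4250 to 4463. Against KBrO3 alone, 851 became 427 with arrays scaled to their medians, 52 with normexp, 268 with only the 6 arrays compared, 2739 with Benjamini-Hochberg, 268 with the slide as a random block and 490 to 544 without any one replicate. Fits with fewer arrays have fewer residual degrees of freedom, and the cause of these changes was not tested. Rises made up 45.1% of altered genes against control, 39.1% with quantile normalization (2068 higher and 3219 lower), 38.1% with median scaling and 52.1% with normexp, which moved the median of all genes to -0.098, -0.138 and -0.309. Against KBrO3 alone it was 46.5%, 26.5% with median scaling and 73.1% with normexp (38 higher and 14 lower). Replicate numbers did not pair the samples (r from -0.0656 to -0.0159 against control, from -0.0232 to 0.0389 against KBrO3 alone, and 0 of 3 arrays correlated best with their own number); a replicate block gave 4252 and 511 altered genes. With quantile normalization the list medians turned to -0.07 for endoplasmic reticulum chaperones, -0.13 for autophagy, -0.18 for interferon response, -0.03 for mismatch repair, -0.01 for replication and -0.09 for Krüppel-like factors. With median scaling they turned to -0.06 for endoplasmic reticulum chaperones, -0.07 for autophagy, -0.13 for interferon response, -0.14 for mismatch repair and -0.07 for histone methylation, and with normexp to -0.43 for prostaglandin genes, 0.15 for nucleotide excision repair, 0.09 for oxidative phosphorylation and 0.18 for collagens. With normexp, under which fewer genes of all kinds were altered, list counts against control also dropped, to 12 of 34 mitosis genes lower, 6 of 36 Wnt genes and 4 of 10 glycosylases lower, and 8 of 36 cytokines, 7 of 20 tRNA synthetases and 10 of 25 heat shock proteins higher. Genes that were not altered and changed sign were Cat (-0.08 with median scaling), Cdk1 (0.04 with normexp) and Cyp2d22 (0.56 with the slide block and -0.46 to 0.00 without any one replicate). Kdr, altered and higher, turned to -0.62 with normexp. A fit of the 9 arrays of 4 hr, chosen after seeing the data, gave 4575 and 775 altered genes.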

Other observations

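Long non-coding and small RNA host genes were measured beside the protein-coding ones. Of 331 tested, 31 (9.37%) were altered and higher and 73 (22.1%) lower after co-exposure at 4 hr, where 16.4% and 20.0% of protein-coding genes were. Of 9 genes named Snhg, for hosts of small nucleolar RNAs, 4 were higher (Snhg16 at 2.74, Snhg17 at 2.26, Snhg8 at 2.07 and Snhg5 at 1.38), 1 was lower (Snhg18 at -1.89) and 4 were not altered. Gas5 and Zfas1, hosts of the same kind, were not altered either (0.38 and 0.32). Pvt1, a neighbor of Myc, rose by 1.73. Dio3os, antisense to Dio3, and Firre differed by -2.74 and -2.43. These genes were chosen after their values were seen.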
